A study of Mus musculus with 6 samples.

Results

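The genes described here are 9 interferon-inducible GTPases of the mouse: the guanylate-binding proteins Gbp2, Gbp3, Gbp4, Gbp6 and Gbp7, and the immunity-related GTPases Irgm1, Irgm2, Igtp and Iigp1. They were taken by name from the 21307 rows of the deposited expression table, and all 9 names were found there. The set was proposed with the values of this same comparison in view, so the differences between conditions are given as a description and carry no test. The study sequenced messenger RNA of bone marrow B cells from pre-tumoral mice, 6 to 8 weeks old, on a mixed C57BL/6 and 129S1/SvlmJ background. Both groups carried the Eµ-myc transgene, in which an immunoglobulin heavy chain enhancer drives the growth-promoting transcription factor MYC in B cells, together with loxP-flanked Prmt5 alleles (Prmt5F/F) and the inducible recombinase CreER. Cells of both groups were grown with interleukin 7 at 5 ng/ul. The 4-OHT group (3 libraries) received 50 nM 4-hydroxytamoxifen for 24 h, which activates CreER and deletes Prmt5, and the ethanol group (3 libraries) received the solvent. Both were then kept for 5 more days in fresh medium. The sample titles call the ethanol libraries WT and the 4-OHT libraries PT, and the series text speaks of wild-type mice, whereas the sample characteristics give the same genotype for all 6. The table holds 1 FPKM value (fragments scaled by transcript length and library size) per gene and condition, so no value below has a replicate error, and the read depth is unknown. The labels do not say whether the libraries of a group came from separate mice.

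Guanylate-binding proteins are large GTPases that cells make in response to interferons, above all interferon gamma. They assemble on the vacuoles and surfaces of intracellular microbes and help to open them and to set off inflammasomes. Immunity-related GTPases work beside them. Irgm1, Irgm2 and Igtp (also named Irgm3) are the regulators of that family, which sit on the cell's own membranes and hold the effectors inactive, and Iigp1 (also named Irga6) is an effector that coats pathogen vacuoles. Interferon gamma signals through its receptor and JAK kinases to factors that bind GAS elements, and through IRF factors, which bind the interferon-stimulated response element (ISRE).

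Promoter sequence is shown first because the genes share one feature in it, and sequence was not read when they were chosen. The set is made of interferon-inducible genes, however, so a shared interferon response element is not independent of that choice. RefSeq promoters of GRCm38.p6, from 250 bases before to 50 bases after each transcription start, were matched for 6 of the 9 genes: Gbp2, Gbp3, Gbp7, Irgm1, Irgm2 and Igtp. Those of Gbp4, Gbp6 and Iigp1 were not matched. The last 120 bases before the start are printed 5′ to 3′ on the strand of the gene, with motif matches in capitals. The ISRE-type motif is GAAA, any 2 bases and GAAA, which reads TTTC, any 2 bases and TTTC on the opposite strand, and the GAS-type motif is TTCNNNGAA; both were searched on both strands. The windows are chr3:142530216-142530335 for Gbp7, chr3:142559924-142560043 for the first start of Gbp3 and chr3:142620543-142620662 for Gbp2, all on the plus strand. They are chr11:48871421-48871540 on the minus strand for Irgm1, chr11:58199436-58199555 on the plus strand for Igtp and chr11:58214857-58214976 on the plus strand for Irgm2.
Gbp7: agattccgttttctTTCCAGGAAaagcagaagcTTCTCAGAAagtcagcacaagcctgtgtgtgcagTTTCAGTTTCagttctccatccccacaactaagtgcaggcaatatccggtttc
Gbp3: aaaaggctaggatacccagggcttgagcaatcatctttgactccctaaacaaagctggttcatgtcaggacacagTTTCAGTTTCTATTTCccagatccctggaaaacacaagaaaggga
Gbp2: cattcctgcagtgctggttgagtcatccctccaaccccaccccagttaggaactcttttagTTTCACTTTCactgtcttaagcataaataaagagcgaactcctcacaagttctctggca
Irgm1: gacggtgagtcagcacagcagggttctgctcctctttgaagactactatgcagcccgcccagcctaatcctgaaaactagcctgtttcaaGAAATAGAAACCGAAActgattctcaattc
Igtp: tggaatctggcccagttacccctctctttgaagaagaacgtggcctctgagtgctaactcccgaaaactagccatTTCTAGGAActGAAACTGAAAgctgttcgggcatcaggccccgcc
Irgm2: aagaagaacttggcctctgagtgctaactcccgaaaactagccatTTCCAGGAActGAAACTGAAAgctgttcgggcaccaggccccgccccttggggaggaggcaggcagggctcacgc

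All 6 genes held an ISRE-type match, against 3.44% of the 32851 promoters of the reference table and 3.99% of the 27025 genes in it. The matches began 59 bases before the start in Gbp2 (position -59), at -53 in Gbp7, at -64 in Irgm2 and at -34 in Igtp. Gbp3 had a pair of overlapping matches that began at -45 and -39, and Irgm1 a pair that began at -30 and -24. A second RefSeq start of Gbp3 had no match of either kind. GAS-type matches were in 3 of the 6 genes, Gbp7 (at -106 and -87), Irgm2 (-75) and Igtp (-45). Over the reference table they were in 8.30% of promoters and 9.55% of genes. No GAS-type match overlapped an ISRE-type match in these 6 promoters. Both motifs together were in 0.454% of all promoters and 0.540% of genes. In Igtp and Irgm2 the GAS-type and ISRE-type matches lie side by side, and the promoters of these neighbouring genes aligned over 270 columns with 90.4% identity. Among the other pairs of member promoters the highest-scoring local alignment spanned 90 columns, between Irgm1 and Irgm2, at 67.8% identity. Of the GTPases outside the set, Gbp5 had an ISRE-type match at -165 and GAS-type matches at -245 and -52, and Gm12250 (also named Irgb10) had ISRE-type matches at -91 and -46 and a GAS-type match at -61. Not all relatives had them: of 7 other immunity-related GTPase genes with a promoter 4 held the ISRE-type motif and 3 of them both motifs. Irgq had neither, 9930111J21Rik1 had only an ISRE-type match after the start (26 to 35), and Gbp2b (Gbp1 of the expression table) had an ISRE-type match at -137 and no GAS-type match. In the list of type I interferon-stimulated genes 15 of 28 promoters held the ISRE-type motif, and in the list of other interferon gamma-induced genes 3 of 13. These are matches of letters in a fixed window and not measured binding.

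**Figure D1:**
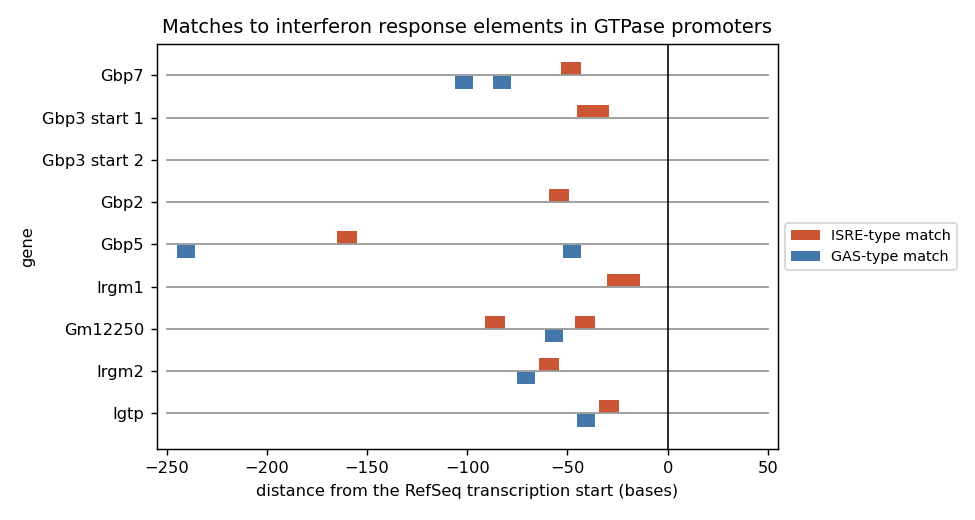
Positions of ISRE-type (orange) and GAS-type (blue) matches in RefSeq promoters of GTPase genes, by distance in bases from the transcription start. Of the 6 members with a promoter (Gbp7, Gbp3, Gbp2, Irgm1, Irgm2, Igtp) all have an ISRE-type match, and Gbp7, Irgm2 and Igtp also have a GAS-type match; Gbp5 and Gm12250 are other family genes.

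The guanylate-binding proteins Gbp7, Gbp3 and Gbp2 were each at least 2-fold lower in 4-OHT than in ethanol, Gbp4 was lower by less, and the regulators Irgm1, Irgm2 and Igtp stood near their control values. Differences are log2 ratios, 4-OHT over ethanol, after 1 was added to each FPKM, a scale that understates the change of low genes. Rows were compared if they averaged 1 FPKM or more and neither value was 0. That left 10856 rows of the table and 7 of the 9 genes, since Gbp6 and Iigp1 were too low. Of these 7, 3 were at least 2-fold lower and none was at least 2-fold higher, and over all compared rows 2.58% were at least 2-fold lower and 10.4% at least 2-fold higher. The set was chosen on this contrast, so nothing is read from the size of that share. The median log2 ratio was -0.68 over the 7 genes and -0.07 over all compared rows.

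Gbp7, a guanylate-binding protein tied to oxidative and autophagic defence in macrophages, stood at 36.6 FPKM with ethanol and 10.04 FPKM after 4-OHT. It was 3.41-fold lower (log2 ratio -1.77), and its ratio ranked 25 from the lowest of the 10856 compared rows. Its level was higher than 87.9% of the rows above 0 in ethanol and than 64.8% in 4-OHT. Gbp3 stood at 32.1 FPKM with ethanol and 13.2 FPKM after 4-OHT, 2.33-fold lower (log2 ratio -1.22). Gbp2, one of the guanylate-binding proteins that carry a lipid anchor at the C terminus, stood at 41.4 FPKM with ethanol and 20.03 FPKM after 4-OHT. At 2.01-fold lower (log2 ratio -1.01) it lay next to the 2-fold line, and it was short of it under median-of-ratios scaling (-0.94) and quantile normalization (-0.99). Gbp4 stood at 4.54 FPKM with ethanol and 2.45 FPKM after 4-OHT, 1.60-fold lower (log2 ratio -0.68). The log2 fold changes without a pseudocount in the authors' deposited table are -1.87 for Gbp7, -1.28 for Gbp3, -1.05 for Gbp2 and -0.89 for Gbp4. Gbp6 was listed at 0.523 FPKM with ethanol and 0.853 FPKM after 4-OHT. It lay below the minimum for comparison, and no fold is drawn from it.

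The regulatory GTPases had the smaller differences. Irgm1 stood at 17.7 FPKM with ethanol and 15.5 FPKM after 4-OHT, a log2 ratio of -0.18. Igtp stood at 11.6 FPKM with ethanol and 14.3 FPKM after 4-OHT, a log2 ratio of 0.28. Irgm2 stood at 4.09 FPKM with ethanol and 5.05 FPKM after 4-OHT, a log2 ratio of 0.25. Igtp and Irgm2 kept almost the same level relative to each other: Igtp was 2.84 times Irgm2 in either condition. Their transcripts share stretches of sequence, as given below, and the part of that in this ratio was not tested. The effector Iigp1 was listed at 0.232 FPKM with ethanol and 0.48 FPKM after 4-OHT, below the minimum for comparison.

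**Figure D2:**
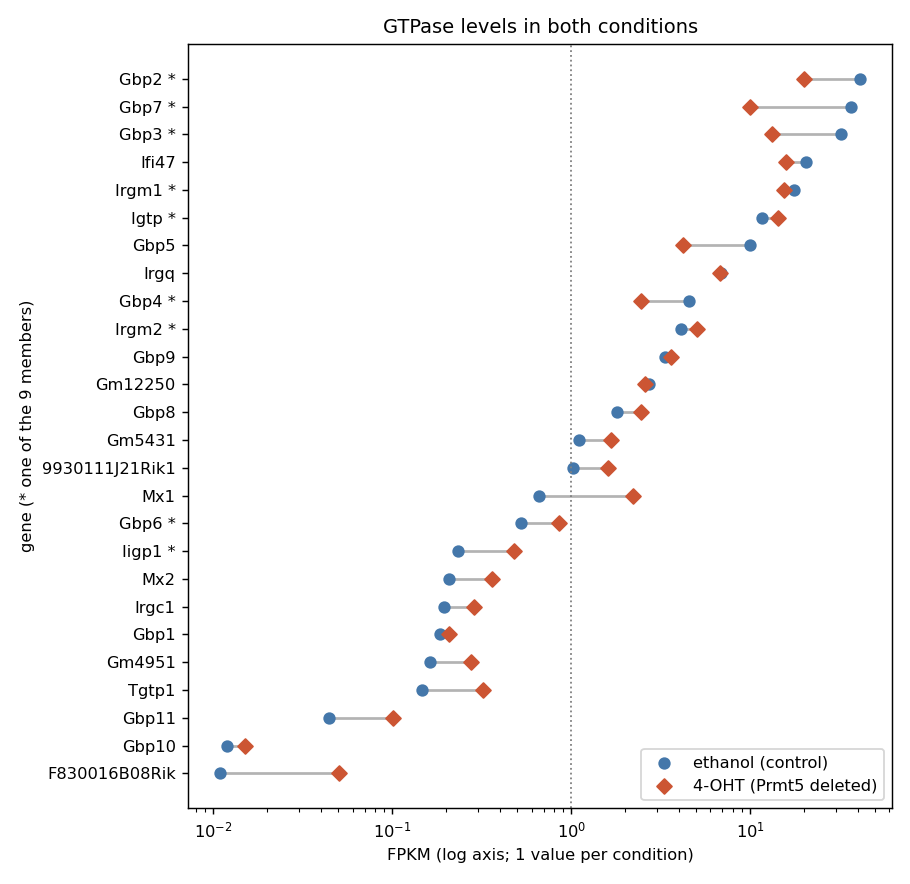
FPKM (log axis) of the 9 members (starred) and of the other GTPase genes in ethanol (circles) and 4-OHT (diamonds), 1 value per condition, with the 1 FPKM line dotted. Gbp2, Gbp7, Gbp3, Gbp5 and Gbp4 lie to the left of their ethanol value in 4-OHT, whereas Irgm1, Igtp and Irgm2 lie close to it; Ifi47 is the merged row of Ifi47 and Olfr56.

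FPKM is scaled by transcript length, so levels can also be set side by side within a condition, where no scaling between conditions enters. In ethanol the order from the highest level was Gbp2, Gbp7, Gbp3, Irgm1, Igtp, Gbp4, Irgm2, Gbp6 and Iigp1. In 4-OHT it was Gbp2, Irgm1, Igtp, Gbp3, Gbp7, Irgm2, Gbp4, Gbp6 and Iigp1. Gbp7 was 2.08 times Irgm1 in ethanol and 0.649 times Irgm1 in 4-OHT. Gbp3 was 1.82 times Irgm1 in ethanol and 0.852 times in 4-OHT. Gbp2 remained above Irgm1, at 2.34 times in ethanol and 1.30 times in 4-OHT. The guanylate-binding proteins also moved against each other, since Gbp2 was 1.13 times Gbp7 in ethanol and 1.99 times Gbp7 in 4-OHT. Whether neighbours in either order differ beyond the spread of libraries cannot be said from 1 value per condition.

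**Figure D3:**
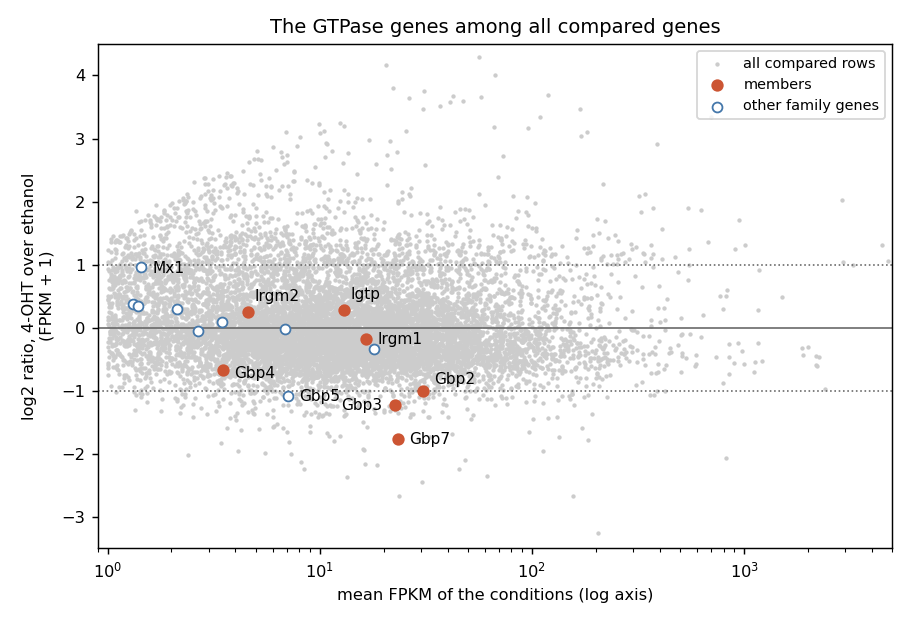
Mean FPKM of the conditions (log axis) against the log2 ratio of 4-OHT over ethanol for the 10856 compared rows (grey), with the 7 compared members in orange, other family genes as open circles and dotted lines at 2-fold. Gbp7, at -1.77, lies near the lower edge, Gbp3 and Gbp2 lie at -1.22 and -1.01, and Irgm1, Irgm2 and Igtp lie inside the dense band around 0.

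The members that were at least 2-fold lower shared a place in the genome. Coordinates are those of the table, on mm9. Gbp7 (142193302 to 142213047), Gbp3 (142223016 to 142236176) and Gbp2 (142283627 to 142300972) lie in the Gbp cluster of chromosome 3. That cluster holds a further pair of rows outside the set, Gbp5 and Gbp1. Gbp5, which promotes NLRP3 inflammasome assembly, stood at 10.02 FPKM with ethanol and 4.19 FPKM after 4-OHT, 2.12-fold lower (log2 ratio -1.09). Gbp1 (now named Gbp2b) was listed at 0.184 FPKM with ethanol and 0.207 FPKM after 4-OHT, too low to compare. All 4 compared genes of the cluster were thus at least 2-fold lower, against 2.58% of all compared rows. Gbp7, Gbp3 and Gbp2 belong to the set chosen on this contrast, so nothing is read from that count. Under median-of-ratios scaling and quantile normalization Gbp2 was short of the 2-fold line. The summed level of the cluster was 120.3 FPKM with ethanol and 47.7 FPKM after 4-OHT.

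The Gbp cluster of chromosome 5 did not show that pattern. Gbp4 (105544786 to 105568571) was its lowest ratio. Beside it, Gbp9 stood at 3.32 FPKM with ethanol and 3.60 FPKM after 4-OHT (log2 ratio 0.09), and Gbp8 at 1.81 FPKM with ethanol and 2.46 FPKM after 4-OHT (log2 ratio 0.30). Gbp4 was 1.37 times Gbp9 in ethanol and 0.681 times Gbp9 in 4-OHT. Gbp6, Gbp10 and Gbp11 had a mean below 1 FPKM. The summed level of the cluster was 10.2 FPKM with ethanol and 9.49 FPKM after 4-OHT.

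On chromosome 11 the immunity-related GTPases form separate groups around Irgm1 (48678751 to 48684848) and around Igtp (58013058 to 58021094) and Irgm2 (58028479 to 58036285). Their 7 rows in the family lists summed to 38.4 FPKM with ethanol and 41.0 FPKM after 4-OHT, and none of the 6 compared was 2-fold different. Gm12250, an effector GTPase, stood at 2.73 FPKM with ethanol and 2.60 FPKM after 4-OHT (log2 ratio -0.05). The family genes Gm5431 and 9930111J21Rik1 had log2 ratios of 0.34 and 0.37 from levels between 1.02 and 1.67 FPKM, and Tgtp1 was listed at 0.147 FPKM with ethanol and 0.32 FPKM after 4-OHT. Ifi47 (also named Irgd), a further immunity-related GTPase named here after its value was seen, shares a merged row with Olfr56, which stood at 20.4 FPKM with ethanol and 15.8 FPKM after 4-OHT (log2 ratio -0.35). That row is more abundant than any of the 7, and with it added the sum was 58.8 FPKM with ethanol and 56.9 FPKM after 4-OHT, so the direction of the sum turned. Iigp1 and its relatives Gm4951 and F830016B08Rik lie on chromosome 18, all below 0.5 FPKM in either condition. Irgq and Irgc1 of chromosome 7, which are distant members of the family, were at 6.91 FPKM with ethanol and 6.82 FPKM after 4-OHT (Irgq, log2 ratio -0.02) and below 0.3 FPKM (Irgc1). The related dynamin-like GTPase Mx1 was at 0.66 FPKM with ethanol and 2.22 FPKM after 4-OHT (log2 ratio 0.96), and Mx2 at 0.208 FPKM with ethanol and 0.361 FPKM after 4-OHT.

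The genes around the clusters were compared with the same ratio. Of the 3 nearest rows on each side of the 5 clusters, 20 of 30 were compared (the merged Ifi47 row among them), and none of these was 2-fold lower or higher on the scale with the pseudocount. Next to the chromosome 18 genes, 2010002N04Rik lay at that line, with 11.1 FPKM with ethanol and 23.1 FPKM after 4-OHT (log2 ratio 1.00 to 2 decimals), and its log2 fold change in the authors' deposited table is 1.06. The compared neighbours of chromosome 11 ran from -0.65 (Gemin5) to 0.21 (Trim41). Next to the chromosome 3 cluster, Ccbl2, which encodes a kynurenine aminotransferase, stood at 7.21 FPKM with ethanol and 3.97 FPKM after 4-OHT (log2 ratio -0.72). Beyond it, the general transcription factor gene Gtf2b was at -0.16 and the kinase gene Pkn2 at -0.09, and Pdlim5 on the other side was at 0.49. Next to the chromosome 5 cluster the anion channel genes Lrrc8b and Lrrc8c were at -0.68 and -0.55, and Abcg3 on the other side was at 0.44.

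**Figure D4:**
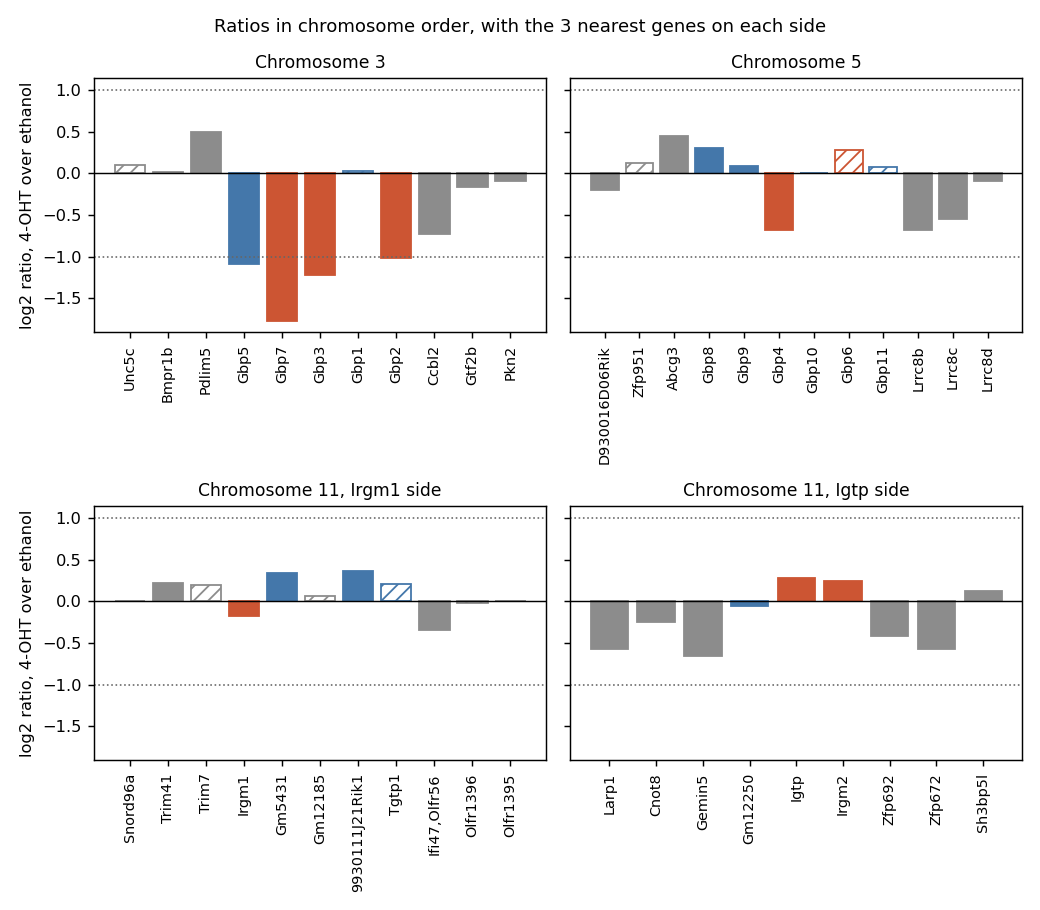
Log2 ratio of 4-OHT over ethanol for each row of 4 GTPase clusters in chromosome order, with the 3 nearest rows on each side in grey, members in orange, other family genes in blue, rows too low to compare hatched, and dotted lines at 2-fold. Bars pass the lower line for Gbp5, Gbp7, Gbp3 and Gbp2 of chromosome 3 and for no other row shown.

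Similar copies limit how well single genes can be measured. Of the distinct 50-base stretches of each gene's GENCODE M21 transcripts, the share also found in transcripts of another gene was 0.31% for Irgm1, 1.69% for Iigp1, 2.03% for Gbp2 and 3.75% for Gbp3. It was 7.70% for Gbp4, 7.77% for Irgm2, 11.8% for Igtp and 12.7% for Gbp7. For Igtp all of that share was with Irgm2, and for Gbp7 most of it, 10.5%, was with the predicted gene Gm43802. For Gbp6 it was 70.7%, and outside the set it was 84.1% for Gbp10, 81.2% for Tgtp1 and 82.9% for 9930111J21Rik1. The values of these last 4 genes are therefore uncertain, since how reads in shared stretches were assigned was not given in the sources used here.

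The pathway above the GTPases was read from gene lists, by counts and medians. Over all compared rows 44.9% were higher and 55.1% were lower in 4-OHT by any amount. Interferon transcripts were listed at or near 0. Ifng was listed at 0.0242 FPKM with ethanol and 0.0372 FPKM after 4-OHT, Ifnb1 was listed at 0 in ethanol and at 0.0104 FPKM after 4-OHT, and Ifna1, Ifna2 and Ifna4 were listed at 0 in both. The cytokine genes Il18 and Il12a, which promote interferon gamma production, stood at 1.74 and 1.72 FPKM with ethanol and at 3.27 and 3.18 FPKM after 4-OHT. All 7 receptor and kinase genes were higher in 4-OHT, none by 2-fold, with a median of 0.62. Ifngr1, the ligand-binding chain of the interferon gamma receptor, stood at 54.9 FPKM with ethanol and 78.1 FPKM after 4-OHT. Ifnar2, a chain of the type I receptor, stood at 32.4 FPKM with ethanol and 59.1 FPKM after 4-OHT, and the kinase gene Tyk2 had the lowest ratio, 0.32.

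The 11 compared STAT and IRF genes had a median of 0.14, with 8 higher, 3 lower and none past 2-fold. Irf1, which Gbp promoters respond to, stood at 38.5 FPKM with ethanol and 41.5 FPKM after 4-OHT (Irf1 and the interferon genes were named after their values were seen). Irf8, a factor of B and myeloid cells, stood at 48.8 FPKM with ethanol and 49.2 FPKM after 4-OHT, and Irf5 at 33.4 FPKM with ethanol and 49.5 FPKM after 4-OHT. The extremes were Stat3, at a log2 ratio of 0.92, and Irf4, a factor of pre-B and plasma cells, at -0.75. The feedback inhibitors were divided, with 5 of 10 higher and 5 lower and a median of 0.05. The phosphatase genes Ptpn6 and Ptpn1 had log2 ratios of 1.39 and 0.75. Socs1, the inhibitor of JAK kinases that interferon gamma induces, was the lowest, at 31.4 FPKM with ethanol and 12.9 FPKM after 4-OHT (log2 ratio -1.22).

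No gene in the list of other interferon gamma-induced genes was as much lower as Gbp7, Gbp3 and Gbp2, though several were lower by more than Irgm1. The GTPase set was chosen on this contrast, so nothing is read from that difference between the lists. A fall of this size was also not particular to the GTPases. Of the 10 genes listed as feedback inhibitors, Socs1 (-1.22) and Cish (-1.12, named after its value was seen) were lower by more than Gbp2. The part of interferon signalling in their fall was not tested. Another 2 of the 10 were at least 2-fold higher. In the list of other interferon gamma-induced genes the median of 15 compared genes was -0.07, with 7 higher, 8 lower and none past 2-fold (the chemokine gene Cxcl10 passed it upward with smaller pseudocounts). B2m, the class I light chain, stood at 1052.4 FPKM with ethanol and 1274 FPKM after 4-OHT, and the proteasome activator gene Psme1 at 168 FPKM with ethanol and 147 FPKM after 4-OHT. The checkpoint ligand gene Cd274 was highest, at 0.92, and Ciita, the activator of class II genes, was lowest, at -0.67. In the list of type I interferon-stimulated genes 29 of 33 were higher and the median was 0.69. The count at least 2-fold higher was 4, but 11 with a pseudocount of 0.1, 13 by the fold changes of the authors' deposited table and 2 under quantile normalization. The antiviral membrane protein genes Ifitm1 and Ifitm3 had log2 ratios of 1.01 and 1.72, Ifitm2 went from 108 FPKM with ethanol to 306 FPKM after 4-OHT, and Ifi203 was lowest, at -0.37.

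Genes that act with or after the GTPases were mostly higher. Of 15 autophagy genes that place GTPases on vacuoles, 12 were higher (1 by 2-fold or more, and 2 under median-of-ratios scaling) and 3 lower, and the median was 0.27. Gabarap, an ATG8-like protein gene, stood at 132 FPKM with ethanol and 257 FPKM after 4-OHT, and the adaptor gene Sqstm1 at 97.1 FPKM with ethanol and 138 FPKM after 4-OHT. Map1lc3a was highest, at 1.11, and Ubqln1 lowest, at -0.34. Of 11 inflammasome genes, 10 were higher (3 by 2-fold or more, and 5 with smaller pseudocounts, median-of-ratios scaling or the authors' deposited fold changes), and the median was 0.64. Casp4, also named caspase 11, the sensor of cytosolic lipopolysaccharide, stood at 3.26 FPKM with ethanol and 9.71 FPKM after 4-OHT, and the pore-forming protein gene Gsdmd at 19.4 FPKM with ethanol and 27.4 FPKM after 4-OHT. Casp8 had a log2 ratio of 0.10. Aim2, the sensor of cytosolic DNA, was the exception, at 21.9 FPKM with ethanol and 14.8 FPKM after 4-OHT (log2 ratio -0.53). Of 6 genes of the enzymes that prenylate and process CaaX proteins such as GBP2, 4 were lower and 2 higher, and the median was -0.25. They ran from Pggt1b, a prenyltransferase beta subunit, at -0.48 to Fnta, an alpha subunit of prenyltransferases, at 0.08, and the protease gene Zmpste24 was at 0.00.

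**Figure D5:**
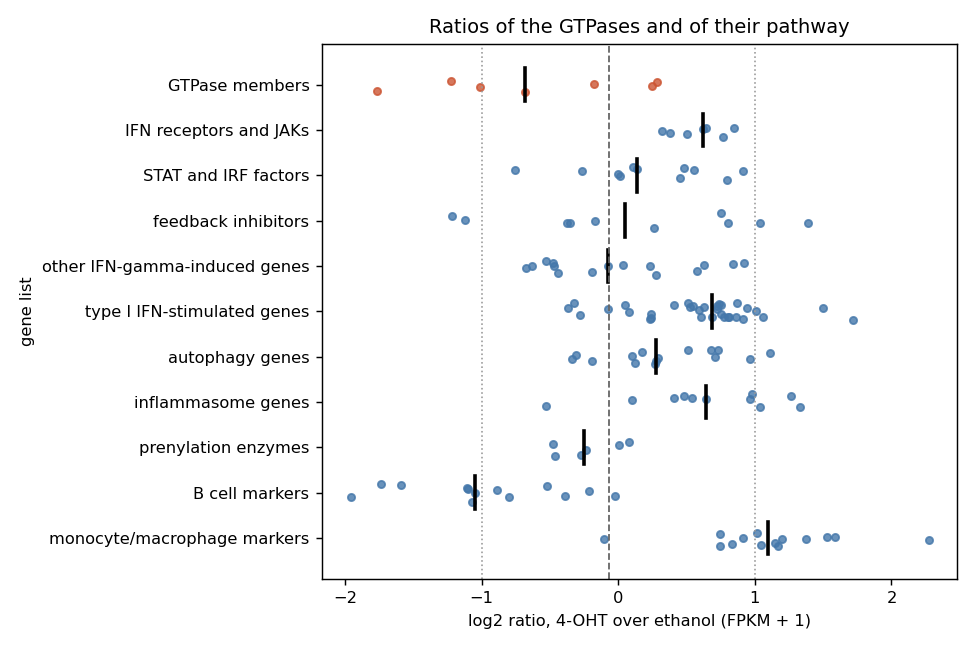
Log2 ratio of 4-OHT over ethanol for each compared gene (points) of the GTPase set (orange) and of lists of its pathway and of cell type markers (blue), with list medians as black bars, the median of all compared rows (-0.07) dashed and 2-fold dotted. The GTPase median of -0.68, which is the ratio of Gbp4, lies between those of B cell markers (-1.05) and of all rows. Of the cell type lists only B cell and macrophage markers are drawn. Among the lists drawn, medians are highest for receptors (0.62), inflammasome genes (0.64), type I interferon-stimulated genes (0.69) and macrophage markers (1.10). They are 0.27 for autophagy genes, 0.14 for STAT and IRF factors and 0.05 for feedback inhibitors. Other interferon gamma-induced genes have -0.07 and prenylation enzymes -0.25.

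Cell type markers differed between the conditions as well. Prmt5 stood at 41.6 FPKM with ethanol and 5.71 FPKM after 4-OHT, and Myc at 402 FPKM with ethanol and 213 FPKM after 4-OHT. B cell markers were present in both conditions, and 13 of 13 were lower in 4-OHT, 7 of them at least 2-fold (median -1.05, summed level 1946 FPKM with ethanol and 901 FPKM after 4-OHT). Markers of other cells were also present. Of 16 monocyte and macrophage markers 14 were compared and 13 of these were higher (median 1.10, summed level of those compared 858 FPKM with ethanol and 2103 FPKM after 4-OHT), and Lyz2 and Ctsd were listed at 0 in 4-OHT alone, which can be a failed estimate. All 14 neutrophil markers (median 3.07, summed level 473 FPKM with ethanol and 3865 FPKM after 4-OHT), 12 of 12 compared endothelial and stromal markers (median 2.53, summed level 49.3 FPKM with ethanol and 523 FPKM after 4-OHT) and 7 of 7 compared megakaryocyte and erythroid markers (median 1.78) were at least 2-fold higher. Of 16 T and NK cell markers only 8 reached the minimum, with 6 of these higher. The 8 summed to 22.6 FPKM with ethanol and 39.0 FPKM after 4-OHT. Among them Nkg7 went from 1.62 to 13.6 FPKM and Lck from 13.6 to 11.1 FPKM. Of 7 compared dendritic cell markers 4 were higher (median 0.01, summed level 130.4 FPKM with ethanol and 174 FPKM after 4-OHT). The most abundant were Bst2 and Irf8, which also stand in the interferon-stimulated and the STAT and IRF lists, and the median is the ratio of Irf8. Zbtb46, Xcr1, Clec9a and Siglech were too low to compare. The part of these shifts in the GTPase values was not tested, and in such bulk samples fewer cells of a type and less RNA per cell cannot be told apart.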

How the data were processed

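RNA of 6 libraries was sequenced after preparation with the TruSeq kit, per the labels' protocols. CASAVA, TopHat2 2.0.9 and Cufflinks 2.1.1 with build mm9 are named in the submitters' processing notes. The deposited table gives FPKM values computed by the authors, 1 per gene and condition; how the 3 libraries of a condition were combined was not given in the sources used here. Its log2 fold changes, also deposited, equalled the log2 of 4-OHT over ethanol within 0.01 in all 15756 rows above 0 in both. No limma fit, SD, n or p-value could be made, and precision is unknown without counts. Ratios used a pseudocount of 1 FPKM, a minimum mean of 1 FPKM and a 2-fold line. Simulated folds well past that line, in abundant genes and without noise, were all recovered. That outcome checks the code alone and says nothing of low genes, folds near the line or the spread of libraries.

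Groups came from the sample characteristics. Gene names in merged rows were split at commas. Locus starts were raised by 1, because 6341 locus lengths equalled RefSeq lengths that way and 437 without it, among 18851 matched names. Promoters are RefSeq (GRCm38.p6), aligned locally in Biopython (match 1, mismatch -1, gap opening -3, extension -1). Shared 50-base stretches were sought on the transcript strand in GENCODE M21. Protein sequences were not used here. The values of 1 gene of the lists are not reported here.

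The members and gene lists were chosen with earlier results of these data known. Named genes were the members, all family genes found, and in each list the 2 most abundant compared genes and those with the highest and lowest ratio. For the lists of other cell types the counts, medians and sums are given instead, with a few genes named after their values were seen. Alternatives were pseudocounts of 0.1 and 0.5, no filter, a minimum of 5 FPKM, median-of-ratios scaling, quantile normalization and the authors' deposited fold changes. The chromosome 11 sum with the Ifi47 row was added after seeing the data. Scripts ran in Python 3.11.15 with numpy 2.4.6, pandas 2.3.3, matplotlib 3.10.9 and Biopython 1.88.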

Additional observations from a re-analysis of the deposited data

How the results depend on the processing

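Over the 7 alternatives the log2 ratio of Gbp7 ran from -1.87 to -1.70, of Gbp3 from -1.28 to -1.15, of Gbp2 from -1.05 to -0.94, of Gbp4 from -0.89 to -0.63, of Irgm1 from -0.19 to -0.11, of Igtp from 0.28 to 0.35 and of Irgm2 from 0.15 to 0.31. Gbp4, Irgm2, Gbp9 and Gm12250 were not compared at a minimum of 5 FPKM, so their ranges leave it out. Gbp5 stayed 2-fold lower (-1.26 to -1.02), whereas Gm12250, Gbp9 and Irgq lay on both sides of 0. The count of members at least 2-fold lower was 3, and 2 under both scaling alternatives, where Gbp2 was lost. The median of the members ran from -1.01 to -0.18, set by which genes were compared (5 with a minimum of 5 FPKM, 9 with no filter). Of all genes, 280 were at least 2-fold lower, but 457 at pseudocount 0.1 and 482 by the authors' deposited fold changes; 1124 were at least 2-fold higher, but 700 among the fewer genes averaging 5 FPKM or more. Medians that moved by more than 1.5-fold were those of Mx1 as the only compared dynamin-like gene (0.96; 1.61 at pseudocount 0.1 and 1.75 by the authors' deposited values), the endothelial and stromal list (2.53; 3.55 at pseudocount 0.1, 3.19 with a minimum of 5 FPKM and 3.75 by the authors' deposited values), the T and NK list (0.68; 1.30 by the authors' deposited values), the interferon ligand list (0.63; 0.0149 with no filter) and the other guanylate-binding proteins (0.09; -1.09 with a minimum of 5 FPKM, where Gbp5 alone was left). In the interferon ligand list only the cytokine genes Il18 and Il12a reached the minimum, so its median of 0.63 describes no interferon gene. No paired analysis was possible because each condition has a single FPKM column, which also kept libraries from being left out in turn. Low values carry the least precision.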

Other observations

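Irg1 (now named Acod1), which encodes the enzyme that makes itaconate in activated macrophages and is unrelated to the immunity-related GTPases despite its symbol, stood at 1.38 FPKM with ethanol and 3.86 FPKM after 4-OHT, a log2 ratio of 1.03. It was named after its value was seen. Among further genes of the interferon gamma list, also picked after their values were seen, the immunoproteasome genes Psmb8 (135 FPKM with ethanol and 97.0 FPKM after 4-OHT) and Psmb9 (44.9 FPKM with ethanol and 28.6 FPKM after 4-OHT), the peptide transporter gene Tap1 (20.8 FPKM with ethanol and 15.0 FPKM after 4-OHT) and Nlrc5 (6.99 FPKM after 4-OHT), the activator of class I genes, had log2 ratios of -0.48, -0.63, -0.44 and -0.53. Psmb10, the third immunoproteasome gene, was at 0.03, and the class I loading factor gene Tapbp was at 0.63.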
